A study of Mus musculus with 12 samples.

Results

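The vascular basement membrane genes examined here are 10 genes of the collagen IV, laminin, nidogen and perlecan families: Col4a1, Col4a2, Lama4, Lama5, Lamb1, Lamb2, Lamc1, Nid1, Nid2 and Hspg2. They were chosen by name, and each symbol was matched to its Ensembl gene among the 55421 genes of the deposited count table. All 10 were found and counted in every library. Of them, 9 had enough counts to be among the 15999 genes tested, and Hspg2, with 3 to 14 counts per library, did not.

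RNA was sequenced from cells sorted from mouse bone marrow as endothelial cells, with the surface phenotype TER-119- CD41- CD45- CD31hi SCA-1+, in 12 mice of 20 weeks of age. The 3 naive controls (Ctr), the 3 mice made hypertensive by chronic infusion of angiotensin II (HTN) and the 3 mice after acute myocardial infarction (MI) were C57BL/6J. The 3 atherosclerotic mice (ApoE) were of the strain Apoe(tm1Unc), lack apolipoprotein E in every cell and, per the study's methods, ate a western-type diet, so genotype and diet cannot be told apart in that group. The labels give day 2 for the MI mice, whereas the study's text gives a later day for this experiment. Libraries are named by group and by the replicate numbers 2, 3 and 4 of the labels, and the same 3 controls served every comparison with disease.

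A basement membrane is a thin sheet of matrix on which endothelial cells sit. It is built from a laminin network next to the cell and a collagen IV network behind it, which nidogens and the heparan sulfate proteoglycan perlecan hold together, and endothelial cells themselves make much of it. In the bone marrow, arterioles have a continuous basement membrane, while that of the sinusoids is thin and interrupted, and blood cells enter the circulation across it.

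Library totals lay between 17007088 and 25136936 counts, so that 3 counts equalled 0.116 to 0.176 counts per 1000000 of the library (CPM). Apoe itself was at 450.5 to 1503 CPM in the 9 libraries of the other groups and at 7.28 to 14.8 CPM in the 3 ApoE libraries, as their label states. None of the 24 endothelial markers listed was at 0 in all libraries, but their summed level was low, between 197 and 360 CPM. Pecam1, which encodes the sorting antigen CD31, had 17.2 to 31.8 CPM and Cdh5, the endothelial cadherin, 2.00 to 4.19 CPM. The most abundant of the list per kilobase were Plvap, a protein of endothelial fenestrae, at 15.3 to 84.7 CPM, and Ly6a, which encodes the sorting antigen SCA-1, at 5.16 to 29.9 CPM. Markers of neutrophils summed to 34051 to 99181 CPM, of erythroid cells to 8095 to 24567 CPM and of mesenchymal stromal cells and adipocytes to 103 to 342 CPM, although the gate excluded CD45+ and TER-119+ cells. The other lists summed to 2034 to 10268 CPM for B and plasma cells, 1608 to 3096 for monocytes, 576 to 1221 for macrophages, 392 to 1809 for megakaryocytes, 338 to 802 for T and NK cells, 118 to 227 for osteoblasts and fibroblasts, 21.3 to 39.3 for smooth muscle and pericytes and 3.23 to 5.96 CPM for Schwann cells. By these sums, neutrophil and erythroid markers stood far above endothelial markers. The lists differ in length and in the level of their genes, and Ngp alone had 12764 to 44531 CPM among the neutrophil markers. The sums therefore do not give the share of RNA from each cell type. The study reports a high purity of its sorted cells by flow cytometry. In such bulk samples, fewer endothelial cells and less RNA per endothelial cell cannot be told apart.

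Col4a1 and Col4a2 encode the chains of the collagen IV of vessel walls and lie head to head, Col4a1 at chr8:11198423-11312826 on the minus strand and Col4a2 at chr8:11312805-11449287 on the plus strand (GRCm38). Their annotated first exons share 22 bases. This stretch is shown because the pair is read from a common start region and its counts are compared below. Capitals mark the shared bases, read on the plus strand at chr8:11312801-11312830.
Col4a1 and Col4a2: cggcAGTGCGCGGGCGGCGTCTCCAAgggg

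Start windows of RefSeq, from 250 bases before to 50 after a gene's start on GRCm38.p6, were found for 7 of the 10 genes. Lama4, Lamc1 and Nid2 had none. The GC box GGGCGG occurred on either strand in the windows of 6 of these 7 genes and in 35.6% of 32817 windows of all genes. The CCAAT box was in 4 of 7 windows (Col4a1, Col4a2, Lamb1 and Nid1) and in 37.4% of all, and the TATA box TATAAA in 0 of 7 and in 13.6% of all. The windows of Col4a1 and Col4a2 overlap by 78 bases and are not independent. The bases before the annotated starts of Lamb1, Lamb2 and Nid1 are printed because these genes belong to the 3 pairs of members whose levels were most alike over the libraries (given below). Capitals mark GC and CCAAT boxes on either strand, and each stretch is on the plus strand.
Lamb1, chr12:31265043-31265233: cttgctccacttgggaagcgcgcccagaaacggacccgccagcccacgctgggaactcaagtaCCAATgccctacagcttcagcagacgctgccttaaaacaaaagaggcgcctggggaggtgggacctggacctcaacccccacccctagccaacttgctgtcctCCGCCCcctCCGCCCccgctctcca
Lamb2, chr9:108479612-108479735: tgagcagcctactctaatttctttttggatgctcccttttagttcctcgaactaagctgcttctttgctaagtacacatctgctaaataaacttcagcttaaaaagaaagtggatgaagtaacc
Nid1, chr13:13437352-13437550: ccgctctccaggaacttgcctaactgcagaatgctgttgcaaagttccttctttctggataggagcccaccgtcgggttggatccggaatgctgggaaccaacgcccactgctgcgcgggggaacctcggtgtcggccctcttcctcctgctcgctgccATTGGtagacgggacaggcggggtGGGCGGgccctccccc
Lamb1 and Nid1 each held a CCAAT box, with 2 GC boxes for Lamb1 and 1 for Nid1, and were 63.9% and 63.8% G or C. The stretch before Lamb2 held neither motif and was 37.9% G or C. A match describes the letters of the window and does not show that a factor binds there.

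Compared per kilobase of exon, so that long and short genes could be set side by side, all members were at low levels. Col4a2 had the highest mean level over the 12 libraries, 1.17 ± 0.57 CPM per kilobase (SD, n = 12), followed by Col4a1 at 0.779 ± 0.27. The median gene tested had 3.41 CPM per kilobase, and 31.0% of genes tested had a lower mean level than Col4a2. Nid1 (0.614) and Lamc1 (0.528) came next. The laminin β chains followed, Lamb2 at 0.326 and Lamb1 at 0.187, then Nid2 (0.134). The α chains Lama4 (0.0823) and Lama5 (0.0773) and perlecan, Hspg2 (0.0233 CPM per kilobase), were the lowest. Of neighbours in this order, Lama5 stood above Hspg2 in 12 of 12 libraries, and Lamc1 above Lamb2, Lamb2 above Lamb1 and Nid2 above Lama4 in 11 of 12 each. Nid1 and Lamc1 could not be ordered, with Nid1 higher in 7 of 12 libraries, nor could Lama4 and Lama5, with Lama4 higher in 8. Annotated antisense genes share 143 exon bases with Nid1 and 43 with Col4a2, and STAR's gene counting sets aside reads that overlap more than one gene, so reads in these bases would be missing if strand was not used.

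None of the 9 tested genes passed the test between any pair of groups. In the quasi-likelihood test of edgeR, adjusted over all 15999 genes by Benjamini and Hochberg's method, 0 of 9 passed an adjusted p of 0.05 in HTN, in ApoE or in MI against controls, where 0%, 0.144% and 0% of all genes passed. At an unadjusted p under 0.05, 0 of 9 members passed in each comparison, beside 3.71%, 5.97% and 2.8% of all genes, and the likelihood-ratio test and DESeq2 also called 0 members. In the comparisons of disease groups with each other, 0 of 9 members passed as well, beside 0.0625% of genes in ApoE against HTN, 0% in MI against HTN and 0.269% in MI against ApoE, and at an unadjusted p under 0.05 again 0 members, beside 5.94%, 8.41% and 12.7% of genes. A test for any difference among the 4 groups gave edgeR adjusted p-values of 0.849 to 0.972 for the members, while 0.144% of genes passed it, and 7.48% at an unadjusted p under 0.05.

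The intervals show what size of change these 12 libraries could have missed. Log2 fold changes of members ranged from -0.39 to 0.64 in HTN, with 3 genes above and 6 below the controls and a median of -0.05 (median of all genes -0.01). In ApoE they ranged from -0.41 to 0.55, with 6 above and 3 below and a median of 0.09 (all genes 0.01). In MI they ranged from -0.27 to 0.36, with 3 above and 6 below and a median of -0.06 (all genes 0.00). The 95% intervals of Lamc1 were the tightest among the members, spanning a 0.633-fold to 1.32-fold level of controls in HTN, 0.753-fold to 1.57-fold in ApoE and 0.804-fold to 1.68-fold in MI. Among the wider ones, Lamb2 in HTN spanned 0.344-fold to 1.68-fold and Lama5 in ApoE 0.672-fold to 3.18-fold.

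**Figure D1:**
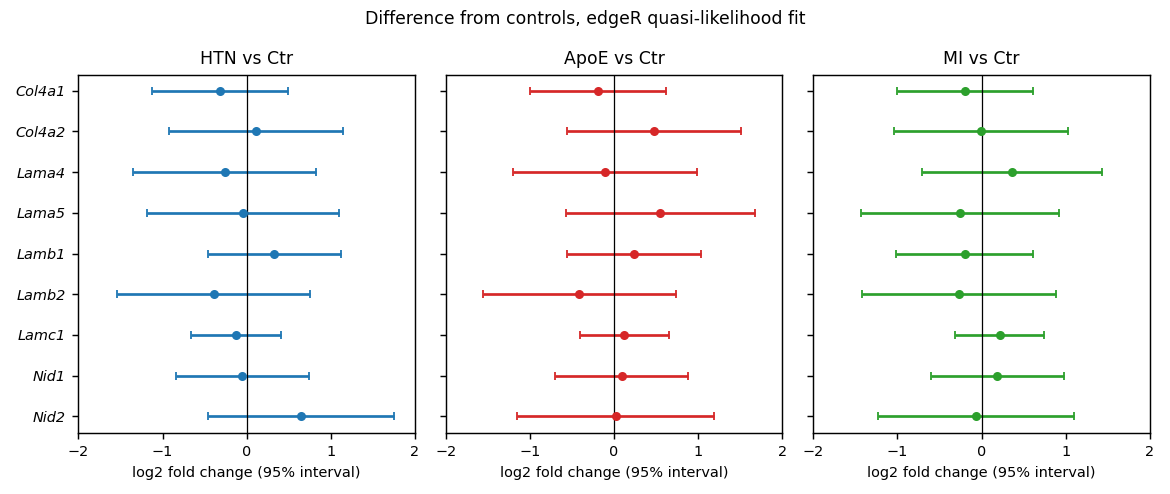
Log2 fold change against controls on the horizontal axis, with its 95% interval, for the 9 tested genes in HTN (left), ApoE (middle) and MI (right), from edgeR's quasi-likelihood fit of 3 mice per group. Every interval crosses 0, and the narrowest intervals are those of Lamc1.

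Among the collagen IV chains, Col4a1 had 4.82, 4.12 and 10.7 CPM in controls 2, 3 and 4. It had 5.67, 5.74 and 4.36 CPM in HTN, 4.00, 4.76 and 8.45 CPM in ApoE and 6.29, 6.72 and 4.17 CPM in MI. Control 4 was the highest of all 12 libraries, ApoE 4 came second, and the groups overlapped throughout. The log2 fold change from controls was -0.32 (SE 0.37) in HTN, -0.20 (SE 0.37) in ApoE and -0.20 (SE 0.37) in MI, with edgeR adjusted p-values of 0.951, 0.962 and 1.00. Without control 4 these values became 0.24, 0.37 and 0.36, with edgeR adjusted p of 0.986 to 1.00, so all 3 changed direction. The ApoE value also turned without ApoE 2, to 0.02.

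Col4a2, the partner chain, had 3.70, 5.14 and 11.8 CPM in controls 2, 3 and 4, 8.49, 7.18 and 6.76 CPM in HTN, 17.3, 4.99 and 6.62 CPM in ApoE, and 6.29, 9.74 and 4.69 CPM in MI. ApoE 2 was the highest library and control 4 the second. Mean levels were 6.89 ± 4.34 CPM in controls and 9.62 ± 6.66 CPM in ApoE (SD, n = 3 each), a log2 fold change of 0.48 (SE 0.48, edgeR adjusted p = 0.927). Without ApoE 2 it was -0.25 and without control 4 it was 1.13, neither of them called. The log2 fold change was 0.11 in HTN and -0.01 in MI, with SE 0.48 each.

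**Figure D2:**
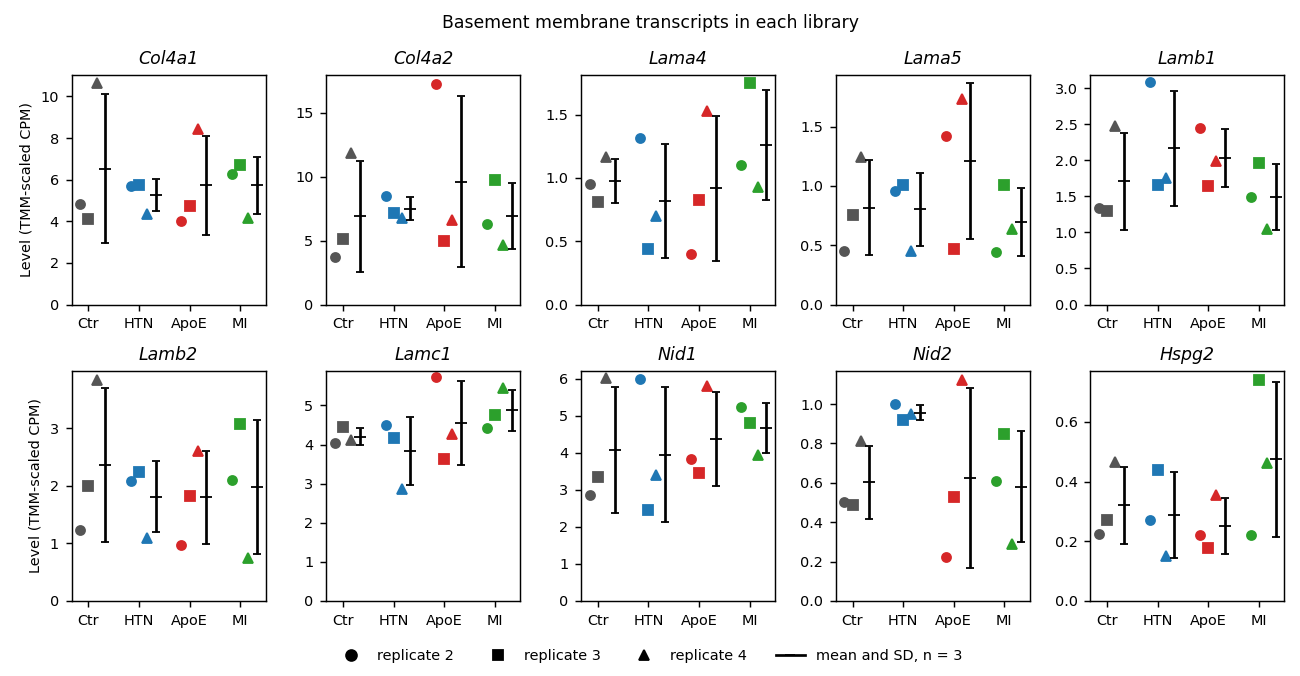
Level of each of the 10 genes in TMM-scaled CPM (vertical axes, each from 0) in the 4 groups, 1 point per mouse with the replicate number as its shape, and the mean with SD of 3 mice as a bar beside the points. Control 4 tops its group for 9 genes, and the single high Col4a2 value of 17.3 CPM is ApoE 2.

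Laminins are trimers of an α, a β and a γ chain. Lama4, the α chain shared by most endothelial basement membranes, had 0.953, 0.812 and 1.16 CPM in controls 2, 3 and 4, 1.32, 0.438 and 0.701 CPM in HTN, 0.400, 0.822 and 1.53 CPM in ApoE, and 1.10, 1.75 and 0.927 CPM in MI. These values rest on 9 to 33 counts per library. In HTN, ApoE and MI, libraries of one group differed by more than the means of the groups did, while the controls lay closer together. The log2 fold changes were -0.26 in HTN, -0.11 in ApoE and 0.36 in MI (SE 0.50 each).

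Lama5, the α chain of mature and arterial endothelial laminin, had 0.448, 0.758 and 1.24 CPM in controls 2, 3 and 4, 0.953, 1.01 and 0.451 CPM in HTN, 1.42, 0.470 and 1.73 CPM in ApoE, and 0.442, 1.01 and 0.637 CPM in MI. ApoE 4 and ApoE 2 were the highest libraries, but ApoE 3 lay below controls 3 and 4. The log2 fold change in ApoE was 0.55 (SE 0.52, edgeR adjusted p = 0.918), 0.43 without ApoE 2 and 1.01 without control 4. It was -0.04 in HTN and -0.25 in MI.

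Of the β chains, Lamb1 had 1.35, 1.30 and 2.48 CPM in controls 2, 3 and 4, 3.09, 1.66 and 1.75 CPM in HTN, 2.45, 1.64 and 1.99 CPM in ApoE, and 1.49, 1.96 and 1.04 CPM in MI. HTN 2 was the highest and MI 4 the lowest library. All libraries of HTN and of ApoE lay above controls 2 and 3 and, except HTN 2, below control 4. The log2 fold changes were 0.33, 0.23 and -0.20 in HTN, ApoE and MI.

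Lamb2, which replaces Lamb1 in some vessel laminins, varied the most between mice of one group. It had 1.23, 2.00 and 3.84 CPM in controls 2, 3 and 4, 2.09, 2.23 and 1.10 CPM in HTN, 0.978, 1.82 and 2.60 CPM in ApoE, and 2.10, 3.07 and 0.753 CPM in MI. Its log2 fold changes were -0.39 in HTN, -0.41 in ApoE and -0.27 in MI (SE 0.53 each). Without control 4 they were 0.17, 0.16 and 0.29.

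Lamc1, the γ chain that nearly all vascular laminins share, was the steadiest member. It had 4.04, 4.44 and 4.11 CPM in controls 2, 3 and 4, 4.49, 4.16 and 2.85 CPM in HTN, 5.74, 3.64 and 4.28 CPM in ApoE, and 4.42, 4.76 and 5.45 CPM in MI. The groups overlapped, with the highest value in ApoE 2 and the lowest in HTN 4. The log2 fold changes were -0.13, 0.12 and 0.22 (SE 0.25 each). The within-group SD of its log2 CPM was 0.253, against 0.781 for Lamb2, the largest among the members, and a median of 0.318 over all genes tested. The other members lay between 0.438 (Lamb1) and 0.717 (Lama5).

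Nid1, the principal nidogen, had 2.86, 3.36 and 6.01 CPM in controls 2, 3 and 4, 5.99, 2.45 and 3.41 CPM in HTN, 3.82, 3.47 and 5.81 CPM in ApoE, and 5.24, 4.82 and 3.94 CPM in MI. Control 4, HTN 2 and ApoE 4 were the high libraries. The log2 fold changes were -0.05, 0.09 and 0.19 (SE 0.37 each).

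Nid2, which can take the place of Nid1, was the only member whose libraries did not overlap between a disease group and controls. It had 0.505, 0.487 and 0.815 CPM in controls 2, 3 and 4 and 0.999, 0.920 and 0.951 CPM in HTN, with means of 0.602 ± 0.184 and 0.957 ± 0.0398 CPM (SD, n = 3 each). All 3 HTN mice were above all 3 controls. This was 1 of 9 members, and 9.02% of all genes tested were likewise separated with HTN higher. The fold was 1.56, with a 95% interval from 0.725 to 3.36, and the edgeR adjusted p was 0.951. The exact two-sided permutation test gave p = 0.1, the smallest that 3 mice against 3 allow. The values rest on 9, 9 and 21 counts in controls and on 22, 21 and 19 in HTN, and exons of Nid2 share 437 bases with Rtraf on the opposite strand. Which of STAR's stranded or unstranded counts was deposited is not stated, and unstranded counting would leave out reads in these shared bases.

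In the other groups Nid2 spread widely, with 0.222, 0.529 and 1.12 CPM in ApoE and 0.607, 0.847 and 0.290 CPM in MI. All 3 MI mice lay below all 3 HTN mice (log2 fold change -0.70), as did 10.2% of all genes tested. Among the members no other gene was separated in HTN, ApoE or MI against controls, beside 16.8%, 9.51% and 8.86% of all genes separated in either direction.

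Hspg2, perlecan, had 4, 5 and 12 counts in controls, 6, 10 and 3 in HTN, 5, 3 and 7 in ApoE and 4, 14 and 8 in MI, 81 in all. In ApoE 3 and HTN 4 the level was at the 3 counts taken as the floor. For Hspg2 no difference between groups was detected at this depth, and the estimates that follow have an SE of 0.65 to 0.68. When all genes with a count were fitted, its log2 fold changes were -0.16 in HTN, -0.38 in ApoE and 0.51 in MI, with edgeR adjusted p-values of 0.989 to 1.00.

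The differences among mice of one group ran across several members. The 10 genes summed to 20.1, 22.7 and 42.6 CPM in controls 2, 3 and 4, to 33.4, 26.2 and 22.5 CPM in HTN, to 36.5, 22.3 and 34.5 CPM in ApoE, and to 28.2, 35.4 and 22.4 CPM in MI. Control 4 had the highest value of its group for 9 members, MI 3 for 8, ApoE 4 for 7 and HTN 2 for 6. Within each group, 1 or 2 mice were thus high for most members, and the summed levels of the 4 groups overlapped.

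**Figure D3:**
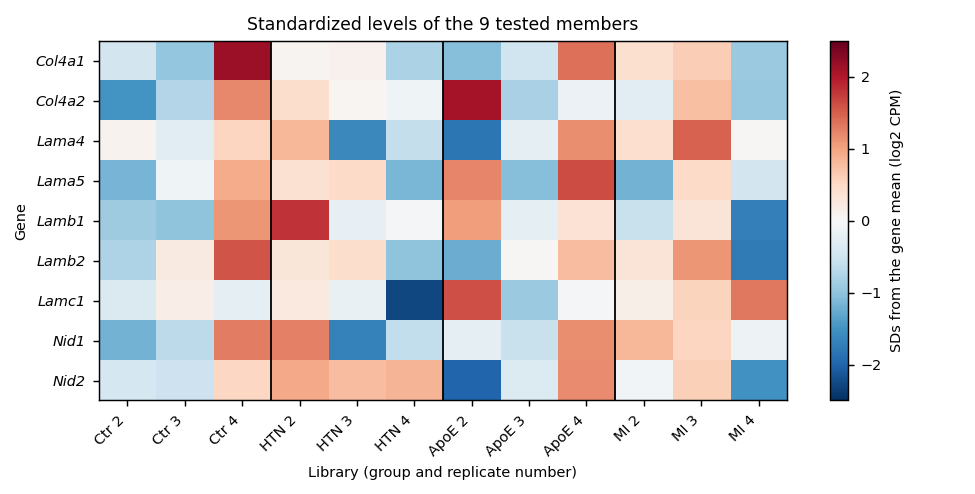
Standardized log2 CPM of the 9 tested genes (vertical) in the 12 libraries (horizontal, black lines between groups); red is above and blue below the mean of the gene, in SDs. Control 4, ApoE 4, HTN 2 and MI 3 are red for most genes. The column of ApoE 2 is mixed, and that of MI 4 is blue for most genes, with Lamc1 red.

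Of the 36 pairs of tested members, 30 had a positive Pearson r of log2 CPM over the 12 libraries, with a median of 0.41 and a range from -0.59 (Lamc1 and Nid2) to 0.83. The highest were Col4a1 with Lamb2 (0.83), Col4a2 with Lamb1 (0.78) and Lama4 with Nid1 (0.72). These are descriptions of 12 libraries that share groups and differ in blood cell content.

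The correlation over libraries was tested for 4 pairs of related chains, Col4a1 with Col4a2, Lama4 with Lama5, Lamb1 with Lamb2, and Nid1 with Nid2. Over the 12 libraries Pearson's r was 0.30, 0.07, 0.44 and 0.31, and none passed (permutation p = 0.342, 0.824, 0.149 and 0.333, with 100000 resamples, 0.455 to 0.824 after Benjamini-Hochberg adjustment over the 4 pairs). Spearman's rho was 0.27, 0.10, 0.45 and 0.33 (permutation p = 0.407, 0.749, 0.149 and 0.298, adjusted 0.543 to 0.749). Without the 2 libraries farthest from the median of the first gene, r was 0.10, 0.73, 0.22 and 0.50, and r of the deviations from the group means was 0.36, 0.21, 0.56 and 0.53. For the collagen IV pair, r was 0.73 without ApoE 2 and 0.07 without control 4. Leaving out 1 library gave the Lama4 and Lama5 pair an r from -0.15 (without ApoE 4) to 0.38 (without ApoE 2) and the Lamb1 and Lamb2 pair one from 0.21 (without MI 4) to 0.66 (without ApoE 2). For Nid1 and Nid2 it lay between 0.20 (without ApoE 4) and 0.53 (without HTN 3).

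ApoE 2 stood apart in how counts were divided between the collagen IV chains. In the other 11 libraries Col4a2 took between 43.4% and 60.8% of the counts of Col4a1 and Col4a2 together, with a median of 54.2% over all 12. In ApoE 2 it took 81.2% (exact 95% binomial interval 77.4% to 84.6%), 388 counts of Col4a2 beside 90 of Col4a1, a ratio of 4.31 where the next highest library, HTN 4, had 1.55. The intervals cover counting error only. The same library had the highest Lama5 share of the Lama4 and Lama5 counts, 78.0% (62.4% to 89.4%), the lowest Lamb2 share of the Lamb1 and Lamb2 counts, 28.6% (18.8% to 40.0%), and the lowest Nid2 share of the nidogen counts, 5.49% (1.81% to 12.4%). In these 3 pairs its interval overlapped that of the next library, HTN 3 for Lama5 (69.7%), HTN 4 for Lamb2 (38.6%) and MI 4 for Nid2 (6.85%). It also had the lowest summed neutrophil and erythroid markers of all libraries, 34051 and 8095 CPM, and an endothelial marker sum of 257 CPM, inside the range of the others. The part of these cell types in the shares was not tested.

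**Figure D4:**
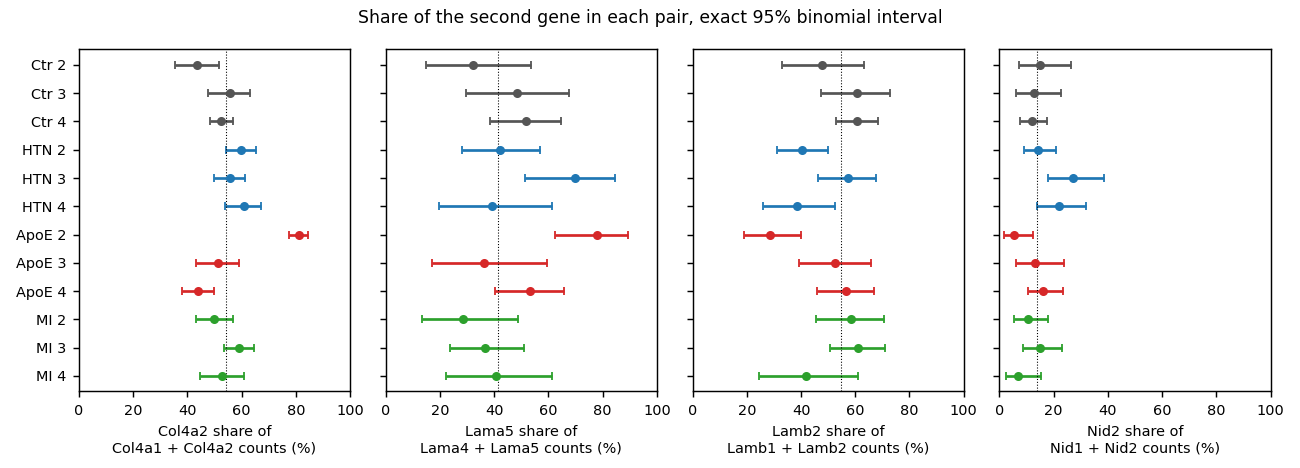
Share of counts (percent, horizontal) that Col4a2, Lama5, Lamb2 and Nid2 take of their pair with Col4a1, Lama4, Lamb1 and Nid1 in each library, with exact 95% binomial intervals; the dotted line is the median of the 12 libraries. ApoE 2 stands at 81.2% in the collagen IV panel, with every other library between 43.4% and 60.8%.

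Among the marker lists, Col4a1 had its highest Pearson r with endothelial markers and its highest Spearman rho with stromal and adipocyte markers. Col4a1 was compared with the summed levels of 12 lists of cell type markers. This comparison was not among the planned tests. Adjustment over the 12 lists does not cover the choice of Col4a1 among the 9 tested members. Over the 12 libraries its log2 level had a Pearson r of 0.82 with endothelial markers (permutation p = 0.00103, 0.0124 adjusted over the 12 lists) and a Spearman rho of 0.65 (permutation p = 0.0252, adjusted 0.151). Without control 4 and ApoE 4, the libraries farthest from the median of Col4a1, r was 0.56, and r of the deviations from group means was 0.90. Endothelial markers summed to 270, 197 and 343 CPM in controls 2, 3 and 4, to 246, 245 and 207 CPM in HTN, to 257, 259 and 360 CPM in ApoE and to 251, 303 and 245 CPM in MI. The highest sums were thus in ApoE 4 and control 4, the libraries highest in Col4a1. Stromal and adipocyte markers had an r of 0.70 with Col4a1 (permutation p = 0.0105, adjusted 0.0632) and a rho of 0.76 (permutation p = 0.0055, adjusted 0.066). Without control 4 and ApoE 4 their r was 0.68, and r of the deviations from group means was 0.69. They summed to 305 CPM in control 4 and 342 CPM in HTN 2. The other 10 lists had r between -0.32 and 0.59, with permutation p adjusted over the 12 lists of 0.169 or more. Stromal cells make the same proteins, and the share of the members' RNA that came from either cell type was not tested.

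**Figure D5:**
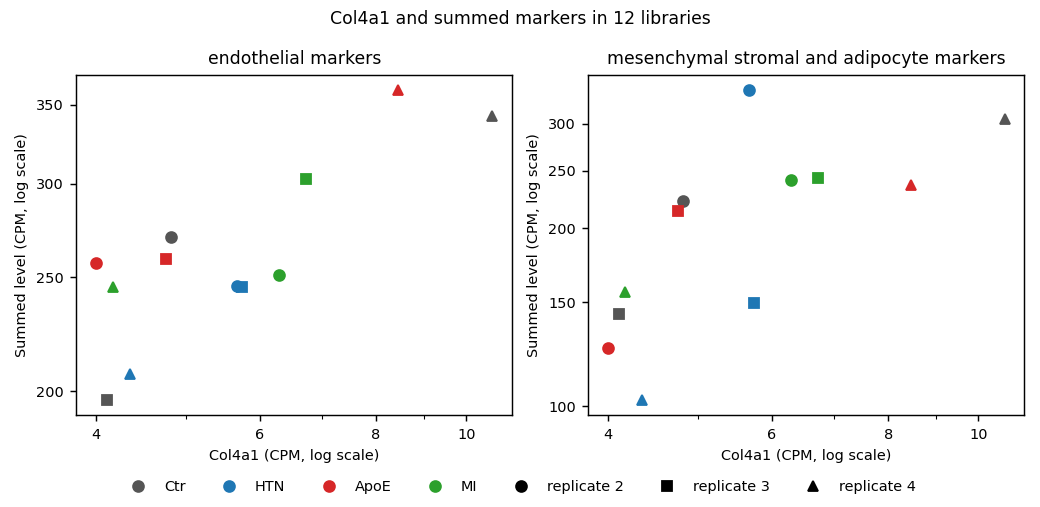
Col4a1 (CPM, horizontal log axis) against the summed level of endothelial markers (left) and of mesenchymal stromal and adipocyte markers (right), in CPM on log axes, with 1 point per library coloured by group and shaped by replicate number. Control 4 and ApoE 4 are highest in Col4a1 and in endothelial markers. Over the 12 libraries r is 0.82 on the left and 0.70 on the right, and Spearman's rho is 0.65 and 0.76.

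The genes whose pattern over the 12 libraries was most like the mean standardized level of the 9 members were Copg1 (r = 0.90), Nrp2 (0.88), Robo4 (0.88), Ltbp4 (0.88), Jam2 (0.88), R3hcc1l (0.87), Ptprb (0.87) and Tmem175 (0.86), of 15990 genes ranked. Robo4 is a guidance receptor of endothelial cells, Nrp2 a co-receptor for vascular endothelial growth factors, Jam2 a junction protein, Ptprb the vascular endothelial phosphatase and Ltbp4 a matrix protein that binds latent transforming growth factor. Of the 8 genes, 1 (Robo4) was on the list of endothelial markers, and the first, Copg1, was not. Ranked by deviations from the group means, 0 of these 8 were still among the first 8. Their r by these deviations was nevertheless 0.89 to 0.92, at ranks 16 to 45 of the 15990 genes. The median r over a list was 0.52 for the 24 endothelial markers, which ranged from -0.40 to 0.88. It was 0.46 for stromal and adipocyte markers and 0.39 for osteoblast and fibroblast markers. Macrophage markers had 0.29, smooth muscle and pericyte markers 0.28, and the other lists 0.20 or less. The median over all genes was -0.01.

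Genes that build, bind or cut the basement membrane were read from 4 lists. Of 29 other basement membrane components, 13 were tested and 0 were called in HTN, ApoE or MI against controls. Ntn4, a laminin-related netrin of vessel basement membranes, had the smallest p among them. It was at 12.6 ± 1.85 CPM in HTN and 12.2 ± 1.08 CPM in ApoE against 7.999 ± 2.16 CPM in controls and 7.52 ± 1.27 CPM in MI (SD, n = 3 each). Its log2 fold changes were 0.65 (SE 0.23) in HTN and 0.60 (SE 0.23) in ApoE, with edgeR adjusted p-values of 0.951 and 0.729. Tinagl1, a matricellular protein, and Ecm1 were the most abundant of the list, at 17.7 and 7.64 CPM per kilobase, each above all 10 members, with log2 fold changes between -0.18 and 0.40.

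Of 18 genes that fold, modify, export or crosslink collagen IV, 15 were tested and 0 were called. P4hb, a subunit of prolyl 4-hydroxylase, was at 488 ± 52.5 CPM in controls, 383 ± 50.4 in HTN, 494 ± 259 in ApoE and 498 ± 128 in MI. Mia3, which loads collagen into transport vesicles, had log2 fold changes of -0.19, -0.11 and -0.01, and Colgalt1, a collagen galactosyltransferase, of 0.11, 0.32 and 0.09 in HTN, ApoE and MI. These enzymes serve many secreted proteins, and P4hb at 163 CPM per kilobase lay far above collagen IV itself.

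Of 19 matrix receptors, 18 were tested and 1 was called. Sdc3, a heparan sulfate proteoglycan of the cell surface, rose in ApoE to 51.3 ± 10.8 CPM from 24.1 ± 2.52 CPM in controls (SD, n = 3 each), a log2 fold change of 1.09 (SE 0.17, edgeR adjusted p = 0.0342), beside 0.144% of all genes called. It was at 30.0 ± 3.93 CPM in HTN and 20.4 ± 2.29 CPM in MI. The call was lost without any single library other than ApoE 2 or MI 2, with edgeR adjusted p between 0.0137 and 0.196 over the 12 single-library omissions. It was also lost when only the 2 groups were fitted (adjusted p = 0.264), with the replicate number as a block (0.0829) and with endothelial markers as a covariate (0.0585), while the log2 fold change stayed at 1.09, 1.08 and 1.01 in these fits and between 0.90 and 1.21 over the single-library omissions. Macrophage markers, at 935 to 1221 CPM in ApoE and 620 to 768 CPM in controls, and B and plasma cell markers, at 5519 to 10268 and 2448 to 4078 CPM, were separated between the same groups, and their part in the Sdc3 level was not tested. The integrin chains Itgb1 and Itgb3 were the most abundant receptors. Itgb1, which pairs with the laminin-binding and collagen-binding α chains, was at 156 ± 18.5 CPM in controls, 151 ± 6.66 in HTN, 183 ± 21.4 in ApoE and 138 ± 15.8 in MI. Itgb3, also a platelet and osteoclast integrin, was at 73.8 ± 34.9 CPM in controls and 133 ± 112 in ApoE, with a log2 fold change of 0.85 in ApoE that was -0.11 without ApoE 2 and not called in either case.

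Of 21 proteases that cut the matrix and their inhibitors, 19 were tested and 0 were called. Ctsb, a lysosomal cathepsin, was at 2817 ± 306 CPM in controls and between 2447 and 3502 CPM on average in the disease groups. Mmp8, the collagenase stored in neutrophil granules and also one of the neutrophil markers above, was at 882 ± 117 CPM in controls and 668 ± 117 CPM in ApoE (log2 fold change -0.40, edgeR adjusted p = 0.831). Timp1, an inhibitor of matrix metalloproteases, was at 0.536 ± 0.253 CPM in controls and 0.107 ± 0.102 CPM in ApoE, with an edgeR adjusted p of 0.792. The ApoE level is under 3 counts, so the size of that difference could not be given.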

How the data were processed

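The authors aligned single-end reads of strand-specific polyadenylated RNA libraries with STAR to the mouse genome (STAR 2.7.3a and GRCm38.p6 in the submitters' processing notes) and deposited raw counts per Ensembl gene without normalization. Reads that map to one place enter such counts, and the strand setting is not given in the sources used here. All 12 columns were used. Symbols, positions and exon lengths came from GENCODE (55240 of 55421 genes matched).

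Counts were fitted in R 4.3.3 with edgeR 4.0.16 (filterByExpr, TMM scaling, glmQLFit with 1 coefficient for each of 4 groups, two-sided glmQLFTest), with Benjamini-Hochberg adjustment over 15999 genes. The common dispersion was 0.0634. CPM values are TMM-scaled. Single genes were compared by exact permutation tests, which cannot go below p = 0.1. Standard errors were derived from the log2 fold change and its F statistic. The fit was tested on simulated data first. The labels name separate mice, 1 library each.

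The members and gene lists were chosen with earlier results of these data known. Named in addition are, from each related list, genes called against controls, the 2 most abundant per kilobase and the one with the smallest p, the 8 genes most like the members, and the 2 highest endothelial markers (Cdh5, Pecam1 and Apoe were added as checks). Alternatives were the likelihood-ratio test that the study names, DESeq2 1.42.0, RLE size factors, other count filters, 2 groups only, the replicate number as a block, marker sums as covariates, immunoglobulin and hemoglobin genes left out, and each library left out. After the data were seen, control 4 and ApoE 2 were also left out together, and exact binomial intervals were added for the pairs. The correlation of Col4a1 with marker sums was not among the planned tests.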

Additional observations from a re-analysis of the deposited data

Results flagged for a closer look

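Sdc3, the only gene of the 4 related lists called against controls, was picked out because its change from controls differed between disease groups: the log2 difference of MI minus ApoE was -1.33, tested as a contrast of the same edgeR quasi-likelihood fit (adjusted p = 0.00934 over all genes), with 20.4 ± 2.29 CPM in MI and 51.3 ± 10.8 CPM in ApoE (SD, n = 3 each). The MI value stood beside a change from controls of -0.24 that was not called. All 3 ApoE mice were above all 3 MI mice, which is no further evidence, because the gene was picked for this difference. In MI against ApoE, 0.269% of all genes were called, and 12.7% had an unadjusted edgeR p under 0.05. Macrophage markers were also separated between these groups, at 935 to 1221 CPM in ApoE and 576 to 920 CPM in MI. So were Schwann cell markers, at 4.23 to 5.96 CPM in ApoE and 3.23 to 4.03 CPM in MI. The part of either cell type in the difference was not tested.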

How the results depend on the processing

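Under 23 alternatives, 0 of 611 member fold changes passed the threshold, and the lowest edgeR or DESeq2 adjusted p of a member was 0.518. Of these values 66 changed sign, 36 of them when 1 library was left out. Counts of 5 to 34 per library for Lama4, Lama5 and Nid2, and of 3 to 14 for Hspg2, limit what can be seen of these genes. Whether the replicate numbers pair the mice was not settled. Deviations of same-numbered libraries from their group means correlated across genes with r between -0.468 and 0.435, and over 0.1 in 8 of 18 pairs. Libraries of different number reached 0.603 (ApoE 2 with HTN 4). With 3 libraries per group, deviations from the group mean depend on each other, so this check could not decide. The fit with the replicate number as a block called 7 genes in ApoE, 22 in MI against ApoE and 5 for any difference, and 0 members. The causes of the changes that follow were not tested.

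Genes called numbered 0 in HTN, 23 in ApoE, 0 in MI, 10 in ApoE against HTN, 0 in MI against HTN, 43 in MI against ApoE and 23 for any difference. Without the low-count filter they were 170, 432, 130, 235, 422, 790 and 990. The likelihood-ratio test called 81 in ApoE, 1 in MI, 70 in ApoE against HTN, 2 in MI against HTN, 274 in MI against ApoE and 234 for any difference. DESeq2 called 81, 1, 76, 22 and 301 in the same 5 comparisons. With only 2 groups there were 4 in ApoE, 1 in MI and 3 in MI against ApoE. The endothelial covariate gave 12 in ApoE, 23 in MI against ApoE and 11 for any difference, the stromal covariate 88 and 39 for the last 2, and leaving out immunoglobulin and hemoglobin genes 66 in MI against ApoE. With libraries left out, calls ranged from 2 to 34 in ApoE, 0 to 1 in MI, 3 to 36 in ApoE against HTN, 0 to 1 in MI against HTN, 8 to 93 in MI against ApoE and 7 to 37 for any difference. At an unadjusted edgeR p under 0.05, 594 genes passed in HTN, 448 in MI and 1345 in MI against HTN.

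Log2 fold changes turned as follows. In HTN with the endothelial covariate, Col4a1 was 0.10, Lama4 0.039, Lama5 0.26, Nid1 0.18 and Itgb1 0.019, and with the stromal covariate Lama5 was 0.056 and Nid1 0.090. In ApoE with the endothelial covariate, Nid1 was -0.035, Nid2 -0.26 and P4hb -0.19, and with the stromal covariate Lama4 was 0.013. Under the replicate block Lama5 was 0.027 in HTN, Nid2 -0.020 and P4hb -0.0078 in ApoE, and Col4a2 0.0077 and Timp1 -0.067 in MI. In MI, Col4a2 was 0.0015 with DESeq2, 0.0055 with at least 10 counts in every library, 0.031 with the endothelial and 0.0064 with the stromal covariate, Mia3 was 0.0064 with at least 10 counts and 0.00061 with 2 groups only, and Timp1 was -0.0085 without a filter.

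With libraries left out, the ranges that crossed 0 in HTN were -0.57 to 0.24 for Col4a1, -0.19 to 0.77 for Col4a2, -0.79 to 0.044 for Lama4, -0.32 to 0.42 for Lama5, -0.015 to 0.72 for Lamb1, -0.70 to 0.17 for Lamb2, -0.25 to 0.049 for Lamc1, -0.49 to 0.35 for Nid1, -0.019 to 0.15 for Ecm1 and -0.094 to 0.068 for Itgb1. In ApoE they were -0.59 to 0.58 for Col4a1, -0.25 to 1.13 for Col4a2, -0.71 to 0.43 for Lama4, -0.78 to 0.46 for Lamb2, -0.083 to 0.25 for Lamc1, -0.17 to 0.59 for Nid1, -0.74 to 0.75 for Nid2, -0.31 to 1.30 for Itgb3, -0.48 to 0.41 for P4hb and -0.33 to 0.083 for Tinagl1. In MI they were -0.44 to 0.36 for Col4a1, -0.34 to 0.65 for Col4a2, -0.62 to 0.21 for Lama5, -0.44 to 0.19 for Lamb1, -0.74 to 0.30 for Lamb2, -0.013 to 0.59 for Nid1, -0.44 to 0.25 for Nid2, -0.18 to 0.58 for Itgb3, -0.089 to 0.048 for Mia3, -0.30 to 0.060 for Ntn4, -0.19 to 0.18 for P4hb and -0.71 to 0.41 for Timp1. For the pairs, r ranged from 0.067 to 0.73 for Col4a1 and Col4a2, from -0.15 to 0.38 for Lama4 and Lama5, from 0.21 to 0.66 for Lamb1 and Lamb2 and from 0.20 to 0.53 for Nid1 and Nid2.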
